A study of Homo sapiens with 12 samples.

Results

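The genes described here are MYC and the factors that share its partner MAX: MYC, MYCN, MAX, MXD1, MXD3, MXD4, MXI1, MNT, MGA and MLX. They were taken by symbol from the table of raw read counts, so they are 10 of its 59611 symbols. Counts were present for 9 of the 10 and all 9 entered the tests, while MYCN had 0 counts in all 12 libraries. Messenger RNA was sequenced from 697 and KOPN-8, human B-lineage acute lymphoblastic leukaemia lines. In each line, 3 libraries came from cells given an sgRNA against SETD2, from 1 clone per line (BM_B in 697, BA in KOPN-8) labelled SETD2 heterozygous KO, and 3 from cells given an sgRNA empty vector, labelled SETD2 WT. SETD2 is the enzyme that trimethylates histone H3 at lysine 36. No drug treatment is listed for any group, and whether the controls are clonal is not stated in the labels.

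SETD2 mRNA was set beside the label. In 697 it was 207, 211 and 238 CPM (counts per gene, scaled to library size) in the libraries labelled KO, against 156, 158 and 169 CPM in the controls. That is higher, not lower, by 0.44 ± 0.0692 on the log2 scale (± standard error; edgeR quasi-likelihood test, Benjamini-Hochberg adjusted p = 0.000102). In KOPN-8 it was 161, 151 and 162 CPM in the libraries labelled KO, against 159, 171 and 177 CPM in the controls, and was not called (edgeR adjusted p = 0.309). Counts per gene do not show the sequence at the edited site, so they could not test the label. The groups are named by their labels, as KO-labelled and control. Library totals ran from 10378769 to 18278662 counts. Summed CPM of 9 B-lineage markers was 4628 to 4722 in KO-labelled 697, 4101 to 4299 in control 697, 3190 to 3279 in KO-labelled KOPN-8 and 2705 to 2794 in control KOPN-8. T-cell markers summed to at most 0.594 CPM and erythroid markers to at most 0.0654 CPM in any library. Myeloid markers summed to 8.54 to 13.7 CPM in KO-labelled and 11.5 to 13.9 CPM in control 697, and to 4.45 to 5.82 CPM in KO-labelled and 2.07 to 3.20 CPM in control KOPN-8. KO-labelled and control groups did not overlap in the B-lineage sum in either line. In the myeloid sum they overlapped in 697 and not in KOPN-8. The part of either sum in the differences between the groups was not tested. These are bulk RNA measures, in which fewer cells expressing a gene and less of its RNA per cell cannot be told apart.

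MYC and MYCN are transcription factors that bind DNA only as pairs with MAX. MYC-MAX pairs recognise the E-box CACGTG and related sites and raise transcription of genes for ribosome production, metabolism and the cell cycle. The MXD proteins, MXI1 (also called MXD2), MNT and MGA also pair with MAX and can occupy the same sites. MXD proteins, MXI1 and MNT recruit SIN3 co-repressors, and MGA is the scaffold of the Polycomb complex PRC1.6, which silences germ cell genes. MLX is a MAX-like partner for the glucose sensors MondoA (MLXIP) and ChREBP (MLXIPL) and for some MXD proteins and MNT. MYC is an oncogene in many lymphoid tumours, and MGA is mutated or deleted in some leukaemias.

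Measured as CPM per kilobase of exon, which allows levels of different genes to be compared, MYC stood far above its partners and antagonists in every group. MYC was at 211 CPM per kb in KO-labelled 697 and 236 in control 697, and at 79.3 in KO-labelled KOPN-8 and 119 in control KOPN-8. MAX, the shared partner, came next at 24.5 and 28.6 CPM per kb in KO-labelled and control 697, and at 26.2 and 26.4 in KO-labelled and control KOPN-8. MLX and MXD3, an MXD protein linked to proliferating precursor cells, lay between 9.96 and 15.5 CPM per kb in all groups. MXI1 was at 11.6 and 10.0 CPM per kb in KO-labelled and control 697, within reach of MXD3, but at 3.501 and 5.58 in KO-labelled and control KOPN-8. MGA was at 3.90 and 3.31 CPM per kb in KO-labelled and control 697, and at 9.72 and 4.98 in KO-labelled and control KOPN-8. MNT, the MAX partner present in most cell types, and MXD4, an MXD protein best known from resting and differentiating cells, lay between 3.07 and 5.12 CPM per kb. MXD1, the founding MXD protein, was lowest at 0.745 and 0.719 CPM per kb in KO-labelled and control 697 and at 1.74 and 1.51 in KO-labelled and control KOPN-8.

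Between neighbours in this order, the library ranges of MYC, of MAX and of the genes below them did not meet in any group, and neither did that of MXD1 with those above it. In KO-labelled KOPN-8, MLX, MXD3, MGA and MNT also stood apart from each other in that order, and the ranges of MXI1 and MXD4 overlapped. The order of MLX and MXD3 depends on the length used. By longest transcript, the means in KO-labelled KOPN-8 were 29.8 CPM per kb for MXD3 and 25.6 for MLX. In control KOPN-8 the range of MLX overlapped that of MXD3, and those of MXI1, MGA, MXD4 and MNT ran into each other. In KO-labelled 697 MXI1 overlapped both MLX and MXD3, and MNT overlapped MGA. In control 697 MXD3 overlapped MXI1, and MXD4 overlapped MGA. MYCN, with 0 counts in every library, was not detected, and a count of 0 allows a level of up to 3 counts, or 0.159 to 0.292 CPM in a library.

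**Figure D1:**
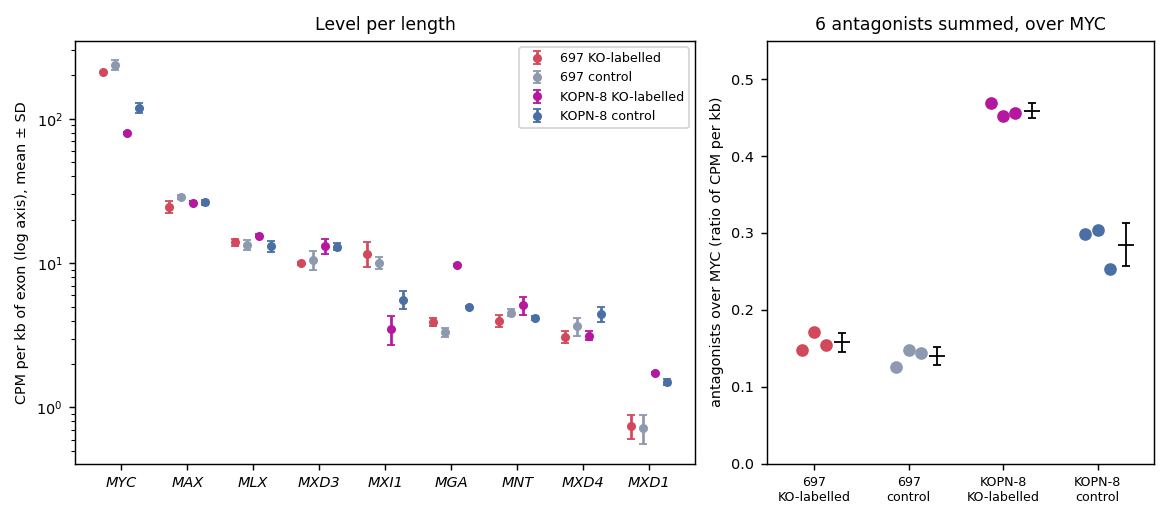
Left, mean level and SD (n = 3 libraries) of the 9 detected network genes in CPM per kb of exon, on a log axis, for the 4 groups; right, the summed level of MXD1, MXD3, MXD4, MXI1, MNT and MGA divided by that of MYC, 1 dot per library with the mean and SD beside it. MYC is highest in every group, MGA is at 9.72 CPM per kb in KO-labelled KOPN-8 against 4.98 in its control, and the ratio is 0.459 in KO-labelled KOPN-8 against 0.285 in its control.

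In KOPN-8, the KO-labelled libraries had less MYC, MXD4 and MXI1 mRNA and more MGA, MNT and MLX mRNA than the controls. MGA was 1.95-fold higher and MYC fell by 33.5%. MAX, MXD1 and MXD3 were not called. Thus 6 of the 9 members tested were called (edgeR quasi-likelihood test, adjusted p under 0.05), where 28.7% of all 15218 genes tested were called. Of the 6, 3 were higher, against 11.5% of all genes, and 3 were lower, against 17.2% of all genes.

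MYC mRNA was 236, 236 and 242 CPM in KO-labelled KOPN-8 libraries and 340.1, 340.3 and 392 CPM in control KOPN-8 libraries. Every KO-labelled library was below every control, and control replicate 3 was the highest. The fitted difference was -0.59 ± 0.0725 on the log2 scale (edgeR adjusted p = 7.39e-07). MYC lies on chromosome 8. Of its 20 nearest neighbours in gene order with at least 1 CPM on average, 11 were called lower and 3 higher in KO-labelled KOPN-8. On the side before MYC, 9 of 10 neighbours were lower, among them TRIB1, a pseudokinase, by -1.22 and LRATD2 by -1.53 on the log2 scale, with WASHC5 at -0.52 and NSMCE2 at -0.53. On the side after MYC, PVT1, a long non-coding RNA gene beside MYC, was lower by -1.53 and ASAP1 by -0.37, and CYRIB, at 0.17, was not called. CCDC26, which lies between PVT1 and CYRIB, had 0 counts in KO-labelled and at most 1 count in control KOPN-8, and was not called. It stood at 65.6 CPM in KO-labelled and 63.9 CPM in control 697.

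The other 460 genes of chromosome 8 had a median of -0.52 on the log2 scale in KO-labelled against control KOPN-8, with quartiles of -0.74 and -0.11, and 188 of them were lower than MYC. The 18 neighbours of MYC with counts in KOPN-8 had a median of -0.52. In 697 the same chromosome had a median of 0.02. The MYC difference in KOPN-8 lay within the spread of the genes on its chromosome, and the part of the chromosome in it was not tested. For comparison, the 20 neighbours of MGA on chromosome 15 had a median of -0.04, with 3 called higher and 3 lower, and 424 of 430 other chromosome 15 genes were below MGA. The median over the neighbours was -0.01 for MXI1, 0.12 for MXD4, -0.05 for MNT and -0.13 for MLX.

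**Figure D2:**
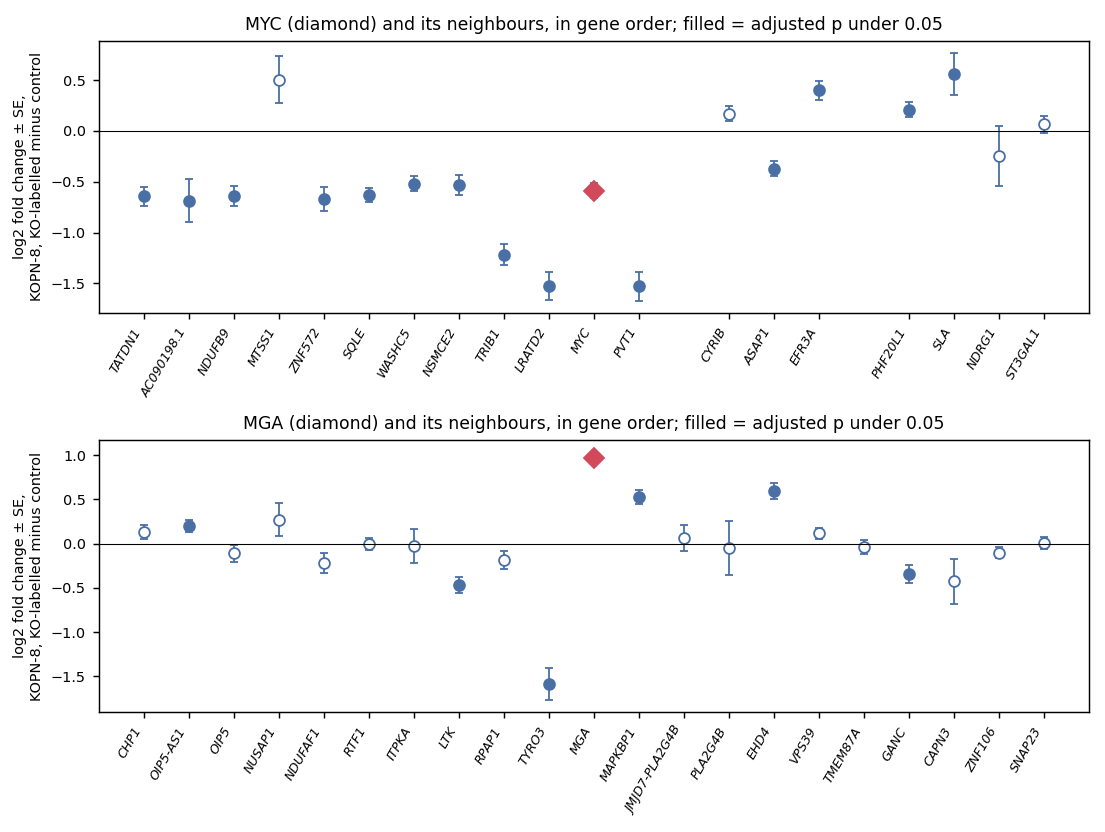
Log2 fold change with its standard error (KO-labelled minus control KOPN-8, n = 3 libraries each) for MYC, for MGA and for up to 10 tested genes on either side in gene order; filled dots have an edgeR adjusted p under 0.05. CCDC26 and TMEM71, with at most 1 count in KOPN-8, are not drawn. MYC, at -0.59, sits among lower genes on its left, while MGA, at 0.96, is above all its neighbours.

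MGA mRNA was 167, 174 and 174 CPM in KO-labelled KOPN-8 libraries and 87.1, 88.5 and 88.3 CPM in control KOPN-8 libraries. The groups stood far apart and the libraries within each lay close together. The difference was 0.96 ± 0.0682 on the log2 scale (edgeR adjusted p = 7.56e-11), and 517 of all genes tested had a higher log2 fold change. TYRO3, a receptor kinase gene that lies next to MGA, was lower by -1.59. MAPKBP1 on the other side was higher by 0.53 and EHD4 by 0.59.

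MXI1 mRNA was 15.4, 20.0 and 13.02 CPM in KO-labelled KOPN-8 libraries and 21.5, 28.4 and 27.2 CPM in control KOPN-8 libraries. The groups did not overlap, though KO-labelled replicate 2 came close to control replicate 1. The difference was -0.69 ± 0.167 on the log2 scale (edgeR adjusted p = 0.00533). MXD4 mRNA was 21.0, 21.7 and 24.0 CPM in KO-labelled KOPN-8 libraries and 35.5, 30.5 and 28.2 CPM in control KOPN-8 libraries. All KO-labelled values were below all control values, at -0.49 ± 0.111 on the log2 scale (edgeR adjusted p = 0.00138). The other MXD genes were not called. MXD1 was 10.92, 10.95 and 11.31 CPM in KO-labelled and 9.13, 9.67 and 9.95 CPM in control KOPN-8 libraries, with no overlap but a difference of only 0.20 ± 0.145 (edgeR adjusted p = 0.329). MXD3 was 76.5, 60.2 and 67.1 CPM in KO-labelled and 69.7, 68.7 and 63.3 CPM in control KOPN-8 libraries, which overlapped, at 0.02 ± 0.0935 (edgeR adjusted p = 0.926).

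MNT mRNA was 40.2, 41.9 and 51.9 CPM in KO-labelled KOPN-8 libraries and 36.7, 35.4 and 37.7 CPM in control KOPN-8 libraries. The groups did not overlap, and KO-labelled replicate 3 stood apart above the rest. The difference was 0.29 ± 0.0944 (edgeR adjusted p = 0.0234), a call that was lost without any 1 of 3 libraries. Without KO-labelled replicate 3 it was 0.17 (edgeR adjusted p = 0.215), and the adjusted p was 0.0641 without control replicate 1 and 0.0936 without control replicate 2. MLX mRNA was 65.3, 64.9 and 68.3 CPM in KO-labelled KOPN-8 libraries and 53.3, 53.4 and 61.9 CPM in control KOPN-8 libraries. The groups did not overlap, and control replicate 3 came nearest to the KO-labelled libraries. The difference was 0.23 ± 0.0790 (edgeR adjusted p = 0.0278). That call was lost without KO-labelled replicate 1 (edgeR adjusted p = 0.0581) or 3 (0.0894), and without control replicate 1 (0.130) or 2 (0.137). MLX shares 770 exon bases with PSMC3IP on the opposite strand, which itself was at 0.09 (edgeR adjusted p = 0.521), and whether the counting used strand is not given in the sources used here. MAX mRNA was 114, 119 and 115 CPM in KO-labelled and 118, 121 and 113 CPM in control KOPN-8 libraries, at -0.01 ± 0.0702 (edgeR adjusted p = 0.936), and the groups overlapped.

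By non-overlap of the groups in KOPN-8, MXD1, MNT, MGA and MLX were higher in every KO-labelled library, where 20.4% of all genes were, and MYC, MXD4 and MXI1 were lower in every one, where 24.7% of all genes were.

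Promoters with an E-box are shown for the members that hold one, since the network can bind these sites in its own genes. Of the 9 members in RefSeq's promoter table (GRCh38.p14, 250 bases before to 50 after each start), MXD4, MNT and MLX held the motif CACGTG, which reads the same on both strands. In KOPN-8, where 28.7% of all genes were called, MXD4 was lower and MNT and MLX higher. MGA and MXI1, which hold no CACGTG there, were called too, and MYC has no entry in the table. In the sequences, written 5′ to 3′ on the gene's strand, capitals mark CACGTG, whose first base is at position 13 of the window for MXD4, 58 for MNT and 201 for MLX. They lie at chr4:2262060-2262359 (minus strand), chr17:2401011-2401310 (minus strand) and chr17:42566850-42567149 (plus strand).
MXD4: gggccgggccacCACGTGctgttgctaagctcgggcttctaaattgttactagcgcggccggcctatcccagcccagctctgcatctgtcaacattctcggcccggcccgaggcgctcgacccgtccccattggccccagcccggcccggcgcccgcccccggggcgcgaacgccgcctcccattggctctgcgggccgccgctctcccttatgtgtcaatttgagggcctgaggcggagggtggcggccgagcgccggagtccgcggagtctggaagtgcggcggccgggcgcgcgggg
MNT: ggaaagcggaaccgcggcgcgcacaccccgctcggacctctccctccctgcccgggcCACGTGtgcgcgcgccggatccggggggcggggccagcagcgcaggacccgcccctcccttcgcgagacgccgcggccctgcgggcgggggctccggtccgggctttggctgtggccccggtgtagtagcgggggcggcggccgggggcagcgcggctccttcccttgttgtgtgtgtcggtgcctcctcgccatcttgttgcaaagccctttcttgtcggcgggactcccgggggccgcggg
MLX: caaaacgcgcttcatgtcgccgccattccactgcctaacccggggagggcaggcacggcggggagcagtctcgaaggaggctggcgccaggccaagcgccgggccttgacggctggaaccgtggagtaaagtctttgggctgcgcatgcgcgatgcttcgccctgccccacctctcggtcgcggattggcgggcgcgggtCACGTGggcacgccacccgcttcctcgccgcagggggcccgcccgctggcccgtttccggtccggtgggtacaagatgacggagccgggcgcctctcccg
No CACGTG was present in the windows of MYCN, MAX, MXD1, MXD3, MXI1 or MGA. The motif was in 7.26% of all 35116 promoters of the table and in 12.5% of the 10275 tested genes that could be matched, taking any of a gene's starts. A match is a description of these letters and not of binding.

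In 697, the KO-labelled libraries differed from controls in 1 of the 9 members at the threshold, where 9.45% of all genes tested were called. That member was MGA, which was higher, as were 4.85% of all genes, and 0 members were lower, where 4.6% of all genes were. MGA mRNA was 66.4, 66.3 and 74.0 CPM in KO-labelled 697 libraries and 63.4, 55.01 and 57.0 CPM in control 697 libraries. The groups did not overlap, with control replicate 1 close below the KO-labelled range. The difference was 0.23 ± 0.0721 on the log2 scale (edgeR adjusted p = 0.0409). The call is marginal: it was lost without any of 10 of the 12 libraries, and kept without control 697 replicate 1 or KO-labelled KOPN-8 replicate 3. Pairing libraries by replicate number kept it (edgeR adjusted p = 0.0135).

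MYC mRNA was 630.5, 635 and 634 CPM in KO-labelled 697 libraries and 761, 719 and 644 CPM in control 697 libraries. The KO-labelled values were almost equal and all lay below the lowest control, replicate 3. The difference was -0.16 ± 0.0715 and was not called (edgeR adjusted p = 0.177). MAX mRNA was 112, 117 and 96.7 CPM in KO-labelled 697 libraries and 128, 129 and 122 CPM in control 697 libraries. These did not overlap either, KO-labelled replicate 3 being the lowest, at -0.22 ± 0.0710 (edgeR adjusted p = 0.0557). MAX was called when libraries were paired by replicate number (edgeR adjusted p = 0.00869) and without KO-labelled 697 replicate 2 (0.0252). With that pairing 2319 genes were called in 697, against 1438 without it.

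The remaining antagonists and MLX were not called in 697. MXI1 was 44.4, 65.1 and 51.5 CPM in KO-labelled 697 libraries and 47.2, 50.04 and 41.4 CPM in control 697 libraries, at 0.21 ± 0.151 (edgeR adjusted p = 0.452). MNT was 36.5, 37.1 and 31.1 CPM in KO-labelled 697 libraries and 42.2, 37.6 and 39.1 CPM in control 697 libraries, at -0.18 ± 0.0977 (edgeR adjusted p = 0.290). MNT did not overlap between the groups and MXI1 did. MXD4, MXD1, MXD3 and MLX overlapped too, with differences of -0.25, 0.03, -0.08 and 0.06 on the log2 scale. By non-overlap, MGA was higher in every KO-labelled 697 library, as 12.5% of all genes were, and MYC, MAX and MNT were lower in every one, as 11.6% of all genes were.

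**Figure D3:**
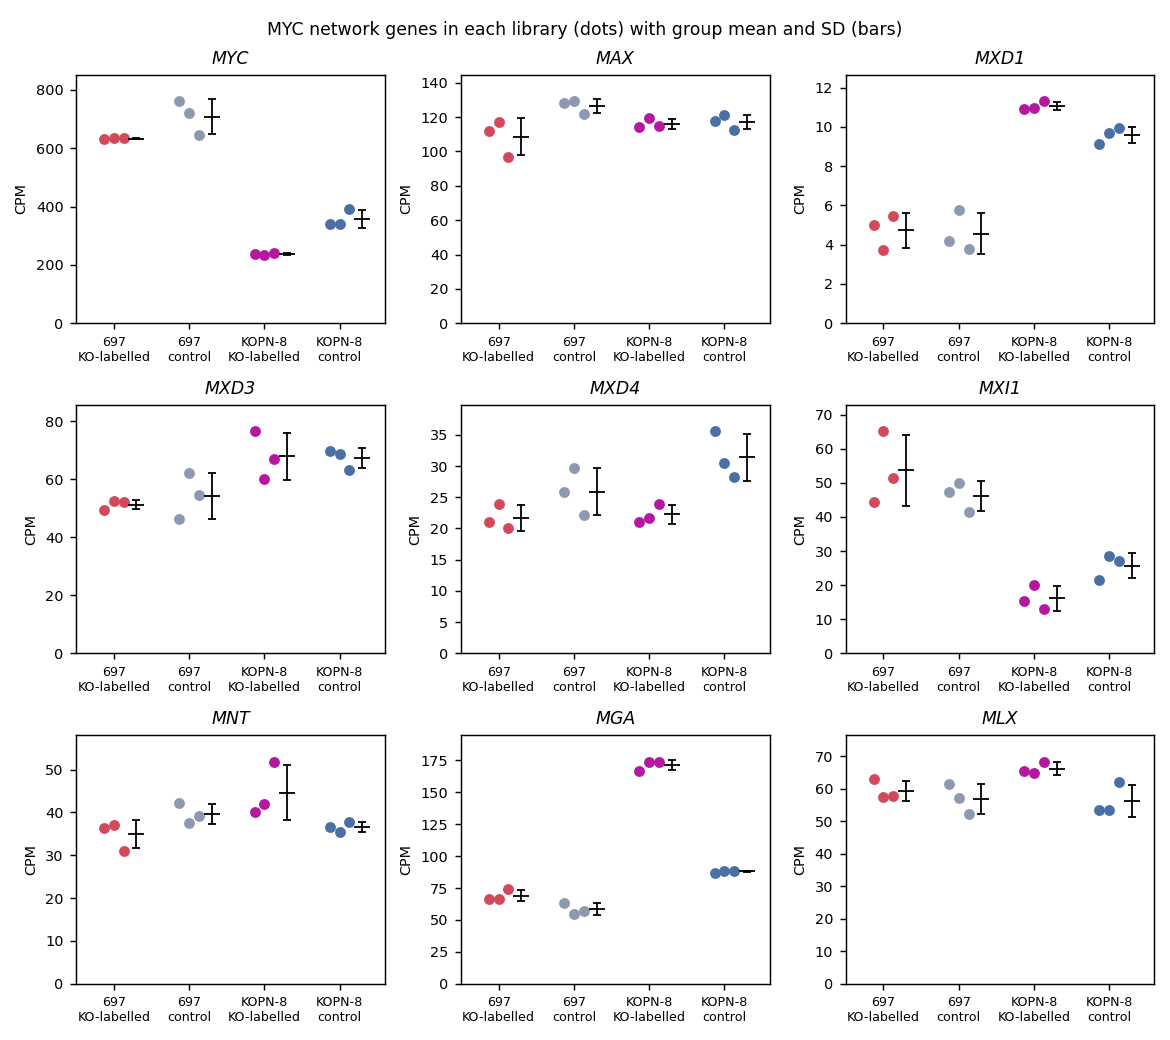
CPM of 9 members in each of the 12 libraries (dots), with the mean and SD of each group of 3 beside them; every axis starts at 0. MGA is at 167 to 174 CPM in KO-labelled KOPN-8 against 87.1 to 88.5 CPM in its control, and MYC at 236 to 242 CPM against 340.1 to 392 CPM.

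The KO-labelled against control differences themselves differed between the lines for MGA, MYC, MXI1 and MNT. These are 4 of 9 members tested, where 19.5% of all genes were called for the difference between lines. MGA had the strongest result, 0.73 ± 0.0990 more in KOPN-8 than in 697 on the log2 scale (edgeR adjusted p = 5.62e-06). MNT was 0.47 ± 0.136 more (edgeR adjusted p = 0.0153), a call lost without KO-labelled KOPN-8 replicate 3 (0.0615). MYC was -0.43 ± 0.102 in the same direction of subtraction, KOPN-8 minus 697 (edgeR adjusted p = 0.00352), and MXI1 was -0.91 ± 0.225 (edgeR adjusted p = 0.00942). MXI1 thus had a difference of opposite sign in the lines, though the one in 697 was not called. Higher differences in KOPN-8 were called for 7.46% of all genes and lower ones for 12.1%. MAX, MXD1, MXD3, MXD4 and MLX were not called, with differences of 0.20 ± 0.0998, 0.18 ± 0.234, 0.10 ± 0.135, -0.24 ± 0.160 and 0.17 ± 0.113.

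**Figure D4:**
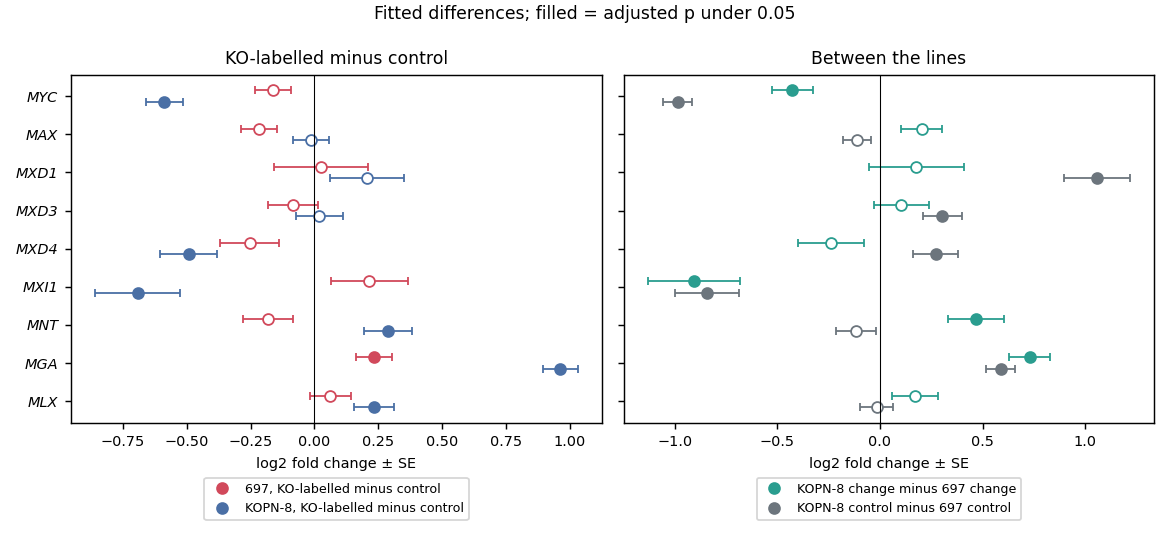
Log2 fold change with its standard error for the 9 members, for KO-labelled minus control libraries in 697 and in KOPN-8 (left) and for the contrasts between lines (right), n = 3 libraries per group. MGA is at 0.23 in 697 and 0.96 in KOPN-8, MYC at -0.16 and -0.59, and MXI1 at 0.21 and -0.69.

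Between the controls, KOPN-8 had less MYC and MXI1 and more MXD1, MGA, MXD3 and MXD4 than 697. This contrast uses the same control libraries as the ones above, and line and culture cannot be told apart in it. It called 6 of the 9 members, which is near the 73.3% of all genes called, so that the count says nothing particular about the network. MYC was 357 ± 29.9 CPM (SD, n = 3) in control KOPN-8 and 708 ± 59.4 CPM in control 697, a difference of -0.99 ± 0.0723 on the log2 scale (edgeR adjusted p = 9.70e-12). MXI1 was 25.7 ± 3.68 CPM in control KOPN-8 and 46.2 ± 4.39 CPM in control 697, at -0.84 ± 0.155 (edgeR adjusted p = 0.00016). MXD1 was 9.58 ± 0.417 CPM in control KOPN-8 and 4.57 ± 1.04 CPM in control 697, at 1.06 ± 0.162 (edgeR adjusted p = 2.98e-06), and MGA, at 88.0 ± 0.757 and 58.5 ± 4.40 CPM, differed by 0.59 ± 0.0705 (edgeR adjusted p = 6.69e-08). Every library of one control was outside the range of the other for these genes. MXD1 shares 237 exon bases with SNRNP27 on the same strand, so its reads may be split with that gene. SNRNP27 was itself 0.36 higher on the log2 scale in control KOPN-8.

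MXD3 was 67.2 ± 3.45 CPM in control KOPN-8 and 54.3 ± 7.90 CPM in control 697, and its call at 0.30 ± 0.0949 (edgeR adjusted p = 0.00634) was lost without control 697 replicate 1 (0.0552). MXD3 shares 1158 exon bases with PRELID1 on the opposite strand and 926 with RAB24 on the same strand, so its reads may be split with them. MXD4 was 31.4 ± 3.76 CPM in control KOPN-8 and 25.9 ± 3.75 CPM in control 697, at 0.27 ± 0.110 (edgeR adjusted p = 0.0307). That call was lost under upper-quartile scaling (0.151), in DESeq2 (0.0550) and without control 697 replicate 1 (0.0581) or 3 (0.253) or control KOPN-8 replicate 1 (0.174). MAX, MNT and MLX were not called (MAX was under upper-quartile scaling, edgeR adjusted p = 0.0113), at -0.11 ± 0.0702, -0.12 ± 0.0956 and -0.02 ± 0.0799. By non-overlap, MXD1, MXD3 and MGA were higher in every control KOPN-8 library, as 38% of all genes were, and MYC, MAX and MXI1 were lower in every one, as 38.2% of all genes were.

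The balance of antagonists to MYC was described as the summed CPM per kb of MXD1, MXD3, MXD4, MXI1, MNT and MGA over that of MYC. It was 0.470, 0.452 and 0.457 in KO-labelled KOPN-8 libraries and 0.298, 0.303 and 0.253 in control KOPN-8 libraries. It was 0.147, 0.171 and 0.155 in KO-labelled 697 libraries and 0.126, 0.148 and 0.1445 in control 697 libraries. All KO-labelled KOPN-8 values lay above all control KOPN-8 values, and the 697 groups overlapped. The summed antagonists were at 36.4 ± 0.832 CPM per kb in KO-labelled and 33.7 ± 0.679 in control KOPN-8 (SD, n = 3), and 33.3 ± 2.72 in KO-labelled and 32.8 ± 2.33 in control 697. MGA made up 26.7% of the sum in KO-labelled and 14.8% in control KOPN-8, and 11.8% in KO-labelled and 10.1% in control 697. Without MGA the ratio was 0.337 in KO-labelled and 0.243 in control KOPN-8. A higher ratio can come from less MYC as well as from more antagonist. MYC was at 79.3 CPM per kb in KO-labelled and 119 in control KOPN-8. MYC over MAX was 3.03 ± 0.104 in KO-labelled and 4.52 ± 0.541 in control KOPN-8, and 8.66 ± 0.895 in KO-labelled and 8.26 ± 0.488 in control 697. No test was made on these ratios, because the members were chosen with earlier results known.

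The other network genes, chosen as a list with the members, were mostly low. MYCL, the third MYC gene, was at 5.62 ± 0.937 CPM in KO-labelled and 3.53 ± 0.432 CPM in control 697 (edgeR adjusted p = 0.144), and had 6 counts in KO-labelled and 20 in control KOPN-8. MLXIP (MondoA), the partner of MLX, was at 199 ± 27.6 CPM in KO-labelled and 171 ± 9.68 CPM in control KOPN-8, at 0.22 ± 0.0864 (edgeR adjusted p = 0.0647). MLXIPL had 1 count in all and was not tested. Neither MYCL nor MLXIP was called in either line.

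Over all genes tested, 28.7% were called in KOPN-8 (11.5% higher, 17.2% lower) and 9.45% in 697. Of 18 genes of the SIN3 complex, which MXD proteins, MXI1 and MNT recruit, 4 were higher and 2 lower in KO-labelled KOPN-8, with a median of 0.03 on the log2 scale against 0.00 over all genes, and 0 were called in 697. The 6 of 18 called in KOPN-8 are near the 28.7% of all genes. BRMS1L, a SIN3 subunit, was at 14.8 ± 1.598 CPM in KO-labelled and 33.6 ± 0.874 CPM in control KOPN-8 (-1.18 ± 0.109; edgeR adjusted p = 6.84e-09). SIN3A, the scaffold, was higher by 0.31 and HDAC1, its deacetylase, by 0.30. ING1, a reader of methylated histone H3 whose gene lies on chromosome 13, was lower by -0.35. Of 18 MYC co-activators, 4 were higher and 0 lower in KO-labelled KOPN-8 (median 0.11), where 28.7% of all genes were called, and 0 were called in 697, where 9.45% were. Among these, BPTF, a chromatin remodeller subunit, was higher by 0.42, HCFC1, a host cell factor that binds MYC, by 0.35, CREBBP, an acetyltransferase, by 0.34 and EP300, its close relative, by 0.21.

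Of 19 genes for MYC protein turnover, 2 were lower and 0 higher in KO-labelled KOPN-8 (median 0.04), fewer than the 28.7% of all genes: PLK1, a mitotic kinase that stabilises MYC protein, by -0.54 and FBXO32, a ubiquitin ligase subunit on chromosome 8, by -0.78. In 697, USP28, a deubiquitinase that stabilises MYC, was the 1 gene of 19 called, where 9.45% of all genes were, and was lower by -0.31. Levels of MYC protein were not measured.

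Of the 13 PRC1.6 partners of MGA, 4 were higher and 1 lower in KO-labelled KOPN-8, with a median of 0.01, where 11.5% of all genes were higher and 17.2% lower. RYBP, a Polycomb subunit, was at 299 ± 13.6 CPM in KO-labelled and 189 ± 12.2 CPM in control KOPN-8 (0.66 ± 0.0641; edgeR adjusted p = 1.57e-08). TFDP1, the usual partner of E2F6, was at 160 ± 11.5 CPM in KO-labelled and 290 ± 13.8 CPM in control KOPN-8 (-0.86 ± 0.0765; edgeR adjusted p = 3.99e-09). TFDP1, like ING1, lies on chromosome 13, and the part of that chromosome in either difference was not tested. TFDP2, a relative of TFDP1, was at 13.4 ± 1.35 CPM in KO-labelled KOPN-8. The controls had 2 counts of TFDP2 in all, a ratio of 330 with a 95% counting interval of 90.9 to 2727. In 697, RNF2, the catalytic ubiquitin ligase of Polycomb complex 1, was lower by -0.49 ± 0.0917 (edgeR adjusted p = 0.000777), the 1 partner of 13 called, where 9.45% of all genes were. Of 22 germ cell genes that PRC1.6 represses in mouse, 6 were tested; of all genes, 28.7% were called in KOPN-8 and 9.45% in 697. In KO-labelled KOPN-8, 2 were lower and 0 higher, STAG3, a meiotic cohesin, by -1.53 and TDRKH, a piRNA factor, by -0.41. In KO-labelled 697, 2 were higher and 0 lower, STAG3 by 0.70 and SMC1B, another meiotic cohesin, which had 102 counts against 36 in control 697. The STAG3 difference changed sign between the lines, by -2.23 ± 0.255 (edgeR adjusted p = 4.63e-07). The STAG3 call in 697 is marginal (edgeR adjusted p = 0.0416) and was lost without any 1 of 8 of the 12 libraries.

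MLX with MondoA drives the arrestin-domain genes ARRDC. Of 6 tested glucose targets of the pair, which also include TXNIP and HK2, 1 was higher and 2 lower in KO-labelled KOPN-8 (median -0.09). TXNIP and HK2 were not among those called. Of all genes, 28.7% were called in KOPN-8 and 9.45% in 697, where 0 of the 6 were called. ARRDC3 was at 0.758 ± 0.213 CPM in KO-labelled and 5.48 ± 0.146 CPM in control KOPN-8 (-2.82 ± 0.226; edgeR adjusted p = 6.68e-10). ARRDC4 was lower by -0.64 and ARRDC2 higher by 0.28.

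Among MYC's best known target groups, 2 of 42 nucleolar genes, 9 of 44 metabolism genes and 9 of 23 cell cycle genes were called in KOPN-8. Of 42 nucleolar and ribosome assembly genes, 1 was higher and 1 lower in KO-labelled KOPN-8, with a median of 0.03 on the log2 scale, where 28.7% of all genes were called. NIP7, a ribosome assembly factor, was at 76.6 ± 2.94 CPM in KO-labelled and 56.6 ± 2.96 CPM in control KOPN-8 (0.44 ± 0.0903; edgeR adjusted p = 0.000632), and PA2G4 was lower by -0.19. Of 44 metabolism and transport genes, 2 were higher and 7 lower (median -0.02), including SORD, sorbitol dehydrogenase, by -0.64, SLC16A1, the lactate transporter MCT1, by -0.34, HSPD1, a mitochondrial chaperone, by -0.27 and IMPDH1, for guanine nucleotide synthesis, by -0.26. Of 23 cell cycle genes, 7 were higher and 2 lower (median 0.06). E2F2 was higher by 0.69, CCNE1, cyclin E1, by 0.62, E2F3 by 0.53 and UNG, uracil glycosylase, by 0.27, whereas MCM4, a helicase subunit on chromosome 8, was lower by -0.60. CCND1, cyclin D1, was at 1.47 ± 0.0220 CPM in KO-labelled and 13.7 ± 2.31 CPM in control KOPN-8 (-3.22 ± 0.206; edgeR adjusted p = 2.10e-10) and had 0 counts in 697.

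Of 18 tested genes that MYC is known to repress, 0 were higher and 4 lower in KO-labelled KOPN-8, with a median of -0.10 on the log2 scale, where 11.5% of all genes were higher and 17.2% lower. SESN1, a stress-response gene, was at 44.4 ± 3.64 CPM in KO-labelled and 86.6 ± 8.27 CPM in control KOPN-8, and CDKN1A, the cell cycle inhibitor p21, at 186 ± 1.09 and 261 ± 27.3 CPM. PDGFRB, a growth factor receptor, was lower by -1.83 and CDKN2C, another inhibitor, by -0.36. In 697, 1 of these genes was higher, CDKN1B, the inhibitor p27, by 0.33, and 2 were lower, CDKN1A by -0.46 and PDGFRB by -1.09, where 9.45% of all genes were called. In the target groups of 697, the nucleolar list had 0 higher and 1 lower (TCOF1, -0.23; median -0.05), metabolism 1 and 1 (SORD, 0.36; the nucleoside transporter SLC29A2, -0.89; median -0.04) and cell cycle 1 and 1 (UNG, 0.36; CCNE1, -0.67; median 0.00).

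Between the control lines, where MYC was 0.99 lower on the log2 scale in KOPN-8, 4 of 42 nucleolar genes were higher and 22 lower in control KOPN-8, with a median of -0.31. Metabolism genes gave 9 higher and 24 lower of 44, with a median of -0.29. Cell cycle genes gave 14 higher and 4 lower of 23, with a median of 0.22, and repressed genes 11 higher and 6 lower of 18, with a median of 0.29. The median over all genes was -0.01, and 36.6% were called higher and 36.7% lower. Without control 697 replicate 1 the nucleolar median was -0.20 and the metabolism median -0.19. Upper-quartile scaling, which itself moved the median of all genes to -0.10, gave a cell cycle median of 0.13.

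**Figure D5:**
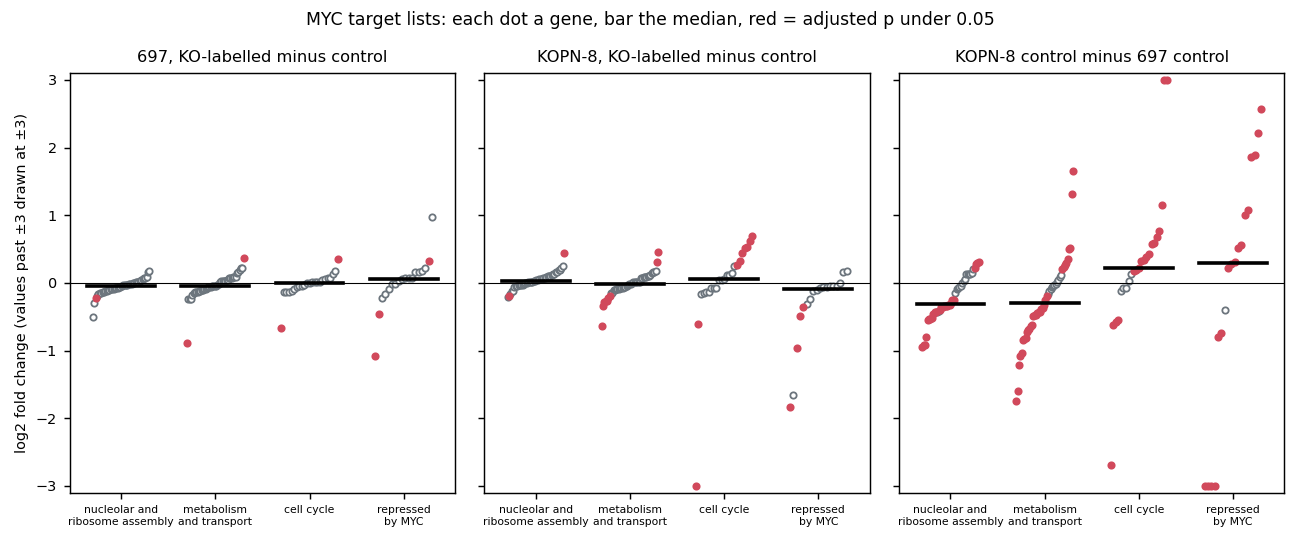
Log2 fold change of each tested gene (dots) in 4 lists of MYC target genes, with the median of each list as a bar and genes with an edgeR adjusted p under 0.05 in red; values past 3 in size are drawn at 3. Medians lie between -0.10 and 0.06 for KO-labelled minus control libraries in both lines, and at -0.31, -0.29, 0.22 and 0.29 for control KOPN-8 minus control 697.

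Genes with and without the E-box had medians close to each other. Genes with CACGTG in a promoter had a median of 0.01 on the log2 scale in KO-labelled against control KOPN-8 (1288 genes), and those without it 0.00 (8987 genes). For control KOPN-8 minus control 697 the medians were -0.04 with it and 0.02 without it. Of the nucleolar genes with a promoter in the table, 16 of 35 (45.7%) held the motif, as did 16 of 38 (42.1%) of the metabolism genes and 6 of 19 (31.6%) of the cell cycle genes.

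The genes whose log2 CPM was most like that of each called member were found by Pearson's r over all 12 libraries, among 10809 genes with at least 5 CPM on average. These correlations describe 4 groups in 2 lines more than 12 separate points, and carry no test. For MYC they included SCARB1 (r = 0.994), PODXL (0.993), CYFIP1 (0.993) and NBPF1 (0.992), with log2 fold changes between -0.65 and -1.15 in KO-labelled KOPN-8. For MGA they were NUMB (0.984), ZNF100 (0.982), BAZ2B (0.975), EMSY (0.974) and WASF1 (0.973). MXI1 was most like CYTH3 (0.980), SAV1 (0.974), SUCLG1 (0.974), AGBL4 (0.972) and BNIP3L (0.972). For MXD4 the values were lower, from DUSP10 (0.897), LPAR6 (0.882) and SQLE (0.881) to CDIP1 (0.876) and METRN (0.868). MNT was most like SLC12A9 (0.925), COLGALT1 (0.909), CCDC137 (0.895), CAPN15 (0.891) and A1BG-AS1 (0.881), and MLX like ZNF75D (0.937), ZNF200 (0.907), NR2C2AP (0.879), KTI12 (0.865) and DTX1 (0.850).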

How the data were processed

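The authors' deposited table holds raw whole-number read counts per gene symbol, made with stranded polyA libraries. The submitters' processing notes name Trimmomatic, STAR, DESeq2 and the hg19 build; their versions, the tool that counted reads and its annotation are not given in the sources here. The deposited normalized table was not used.

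Counts of all 12 libraries entered 1 robust quasi-likelihood fit (edgeR 4.0.16 under R 4.3.3; TMM; low counts removed by filterByExpr) with a mean per group. Benjamini-Hochberg adjustment ran over all 15218 genes, with 0.05 as the threshold for a call. Alternatives used DESeq2 1.42.0, other scalings and filters, and each library left out. CPM uses TMM-scaled totals, which ranged from 10378769 to 18278662 counts before scaling, and intervals cover counting error only. Exon lengths and gene order came from GENCODE v29 (GRCh38), promoters from RefSeq (GRCh38.p14).

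Libraries of a group are labelled biological replicates, with no detail of their cultures. As each KO-labelled group is 1 clone, p-values reflect only the variation among its libraries and those of the control; clone and edit cannot be told apart. Replicates differed beyond sampling noise (chi-square per degree of freedom 2.74 to 9.78). Deviations of same-numbered 697 libraries correlated at 0.105, 0.207 and 0.104, all over 0.1, and so count as paired from the data only. Those of KOPN-8, at 0.0508, 0.0362 and 0.0743, did not. The labels name no pairing, so the main fit left it out. Pairing entered only as an alternative, with a replicate block within each line.

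Members, lists and naming rule were chosen with earlier results of these data known. The rule names all members, SETD2, from each list up to 4 called genes of smallest p per line, 4 tested neighbours on either side of MYC, and the 5 genes most like each called member; other neighbours named in the text were chosen after their values were seen. Results on some genes are not reported here. Of 10 listed B-lineage markers, CD24 was not matched. In simulated counts, each line recovered 59% of 100 log2 changes of 0.5, up or down, and 98% of 50 changes of 2. Of the calls, 9.52% were false in 697 (15015 genes) and 1.91% in KOPN-8 (15016 genes). Far fewer genes were changed in the simulation than were called in the data, so these shares may differ in the data.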

Additional observations from a re-analysis of the deposited data

Results flagged for a closer look

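For each gene here the KO-labelled minus control difference was tested between the lines, and differed (edgeR quasi-likelihood interaction, adjusted p under 0.05). Values are the change in KOPN-8 minus the change in 697 on the log2 scale. Among the members, MGA was at 0.73, MNT at 0.47, MYC at -0.43 and MXI1 at -0.91. SETD2 was at -0.54.

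Among co-repressors and co-activators, BRMS1L was at -1.09, HDAC1 at 0.36, ING1 at -0.45, BPTF at 0.25, CREBBP at 0.31 and HCFC1 at 0.35. For MYC turnover, PLK1 was at -0.64 and FBXO32 at -1.07. Among partners and targets of MGA, TFDP1 was at -0.75, RYBP at 0.60, STAG3 at -2.23 and TDRKH at -0.62. TFDP2 had a fitted value of 8.18, which depends on the prior count because the KOPN-8 controls had 2 counts. ARRDC3, an MLX target, was at -2.85.

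Among MYC targets, NIP7 was at 0.46, SLC29A2 at 0.81, SORD at -0.997, CCNE1 at 1.28, MCM4 at -0.48, E2F2 at 0.82 and E2F3 at 0.47. Among genes repressed by MYC, CDKN1B was at -0.41 and SESN1 at -1.13. MYCL was at -2.39, with 6 counts in KO-labelled and 20 in control KOPN-8.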

How the results depend on the processing

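No value of a member turned its direction past the threshold under an alternative. Over the alternatives, 681 member values stayed on their side of the threshold, 4 passed it and 26 no longer did. Some uncalled values changed sign, such as MXD1 in 697 (-0.09 to 0.23 on the log2 scale) and MXD3 in KOPN-8 (-0.08 to 0.10). In 697, 2319 genes were called with the replicate block and 806 at an adjusted p under 0.01, and 1902 genes were called for the difference between lines at that threshold. The members called in 697 were 2 (MAX and MGA) in DESeq2 and with the replicate block, and 0 without a low-count filter, with only the libraries of the contrast, and at an adjusted p under 0.01; without 1 library they were 0 to 1. In KOPN-8 they were 4 to 6 without 1 library.

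By longest transcript, 5 of 9 members kept their rank of level, and the antagonist ratio was 0.208 in KO-labelled and 0.188 in control 697, and 0.622 in KO-labelled and 0.396 in control KOPN-8. Without MGA it was 0.139 in KO-labelled and 0.125 in control 697, and 0.337 in KO-labelled and 0.243 in control KOPN-8. Between control lines, upper-quartile scaling gave list medians of -0.38 for metabolism, 0.13 for cell cycle and 0.20 for repressed genes. Without 1 library, medians were -0.40 to -0.20 for nucleolar, -0.36 to -0.19 for metabolism, 0.15 to 0.29 for cell cycle and 0.24 to 0.36 for repressed genes, and in 697 -0.035 to 0.11 for repressed genes. The cause was not tested. Of 46 calls of named list genes, 12 were lost without at least 1 library: USP28, STAG3, TCOF1, CCNE1 and PDGFRB in 697, and EP300, ARRDC2, PA2G4, HSPD1, UNG, CDKN2C and PDGFRB in KOPN-8. HSPD1 was lost without KO-labelled KOPN-8 replicate 3 and UNG without control KOPN-8 replicate 2, and the others without 2 to 8 libraries each. The list alternatives and the ratio without 1 library were chosen after seeing the data.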
